A study of Pimephales promelas with 32 samples.

Results

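The gene models of the fathead minnow annotated to 2 enzyme classes, ribonuclease H (RNase H, EC:3.1.26.4) and aspartic endopeptidase (EC:3.4.23), were examined in single larvae. Members were all models whose deposited annotation lists one of these enzyme class numbers, at any count. They number 68 of the 26150 models in the count table, 16 in the RNase H class and 52 in the aspartic endopeptidase class, and 0 models carry both annotations. An abundance filter kept 31 of the 68 for testing, 14 RNase H models and 17 aspartic endopeptidase models, among 21174 tested models in all.

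RNase H cleaves the RNA strand of an RNA-DNA hybrid. Cells carry their own RNases H, which clear such hybrids during replication and remove ribonucleotides from DNA, and retroviruses and LTR retrotransposons encode an RNase H domain beside their reverse transcriptase. Aspartic endopeptidases cut proteins with a pair of catalytic aspartates. The vertebrate enzymes include pepsin of the stomach, renin and the lysosomal cathepsin D, while retroviruses and LTR retrotransposons encode a small aspartic protease that cuts their own polyprotein. Fish genomes hold many families of such elements, and their RNA is often produced from several near-identical copies.

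The labels describe whole larvae of Pimephales promelas, a freshwater fish used in toxicity testing, after 48 h in water with 0.002% DMSO. This vehicle was present in all 3 groups, which were 11 control larvae, 10 exposed to bifenthrin, a pyrethroid, at 3.2 µg/L, and 11 exposed to copper sulfate at 40 µg/L. The age label gives 4 days post fertilisation and 48 h post hatch, whereas 96 h post hatch stands in the treatment protocol. Libraries were made from polyadenylated RNA of 1 larva each and were sequenced in 2 lanes, with 6, 5 and 5 larvae of the 3 groups in lane 6 and 5, 5 and 6 in lane 7. Larvae were exposed in shared beakers and the labels do not tie a larva to a beaker, so p-values treat larvae as independent and may be too small. Total counts per larva ranged from 10655113 to 17993699. Levels below are CPM, read counts scaled to a common library size by TMM, and an edgeR quasi-likelihood test with a Benjamini-Hochberg adjusted p under 0.05 over all tested models counts as a call. The labelled tissue is the whole larva, and tissue markers were not checked.

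The annotation gives a class and not an enzyme. All 16 RNase H models share the same 3 numbers, EC:3.1.30, EC:3.1.26 and EC:3.1.26.4, and none of the 68 lists a protein entry. The 52 aspartic endopeptidase models likewise share a single string of 13 numbers. It includes EC:3.4.23.1 (pepsin A), EC:3.4.23.5 (cathepsin D) and EC:3.4.23.15 (renin) side by side, together with microbial enzymes such as EC:3.4.23.20 (penicillopepsin) and EC:3.4.23.25 (saccharopepsin). Retropepsin (EC:3.4.23.16), the protease of retroviruses, is listed for 0 models in the table, and RNA-directed DNA polymerase (EC:2.7.7.49), the reverse transcriptase of retroelements, is also listed for 0. Whether a member belongs to a retroelement or to a host gene therefore cannot be read from these files.

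The RNase H class took a far larger share of the counts than the aspartic class. RNase H models together held a mean of 0.351% ± 0.136 of all counts in controls, against 0.772% ± 0.357 with bifenthrin and 0.480% ± 0.256 with copper sulfate (SD, n = 11, 10 and 11). Single larvae ranged from 0.139% to 0.643% in controls, from 0.368% to 1.24% in the bifenthrin group and from 0.152% to 1.08% in the copper sulfate group. The highest 3 larvae were all exposed to bifenthrin and the lowest was a control, but the ranges of the groups overlapped. The 52 aspartic models together held 69.7 ± 19.1 CPM of library totals in controls, against 74.6 ± 13.9 with bifenthrin and 67.2 ± 20.6 with copper sulfate (SD, n = 11, 10 and 11), means that lay within 1 SD of each other. In whole-body RNA, fewer cells that express a model and less RNA per cell cannot be told apart.

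A single model dominated the RNase H class. FMg018321 took 53.8% of the counts of the class over all larvae, and between 36.7% and 60.8% in a single larva. By mean CPM it ranked 30 among all 26150 models. FMg020154 and FMg023501 followed, and the 3 together held 77.3% of the class. In that order the 3 averaged 1621, 432 and 280 CPM in controls and 4477, 1151 and 788 with bifenthrin. With copper sulfate they averaged 2560, 687 and 458. The class shares above therefore reflect mostly these 3 models. At the other end, FMg020134 and FMg025532 had only 155 and 90 counts over the 32 larvae and were not tested.

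The 3 most abundant RNase H models, and FMg021987 at a lower level, were higher in bifenthrin larvae than in controls. Of the 14 tested RNase H models, 4 rose and 0 fell by edgeR's adjusted p, where 38.2% of all tested models were called in either direction, 3820 of the 21174 higher and 4276 (20.2%) lower. The models called were FMg018321, FMg020154, FMg023501 and FMg021987, with 2.69-fold to 3.83-fold increases. They make up 28.6% of the tested class, a share below the 38.2% called in either direction over all models. All 4 were higher, and the share called higher over all models, 3820 of 21174, is smaller than 28.6%. However, 3 of the 4 belong to 1 set that varied together, described below, so the 4 calls are not separate observations. The class was not tested as a set. At an unadjusted p under 0.05 the count was 6, all higher, and DESeq2 and limma-voom also called 0 lower. The median log2 fold change of the 14 models was 0.52, against -0.01 for all tested models, and 13 of the 14 values were positive. Within lanes this median was 0.09 in lane 6 and 1.15 in lane 7. Of the 14 models, 10 fall into 3 sets that varied together, so the 14 values are not separate observations either.

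FMg018321 ranged from 740 to 3508 CPM in controls with a median of 1465. With bifenthrin it ranged from 1941 to 7277 with a median of 4090, and with copper sulfate from 742 to 6153 with a median of 2555. All 10 bifenthrin larvae lay above the control median and 5 lay above the highest control, so the groups overlapped over part of their range. Its log2 fold change with bifenthrin came to 1.48 ± 0.31 (SE, edgeR adjusted p = 0.00021, n = 10 and 11).

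FMg020154 ranged from 176 to 993 CPM in controls, from 467 to 2065 with bifenthrin and from 171 to 1954 with copper sulfate, with medians of 433, 1035 and 687. Its log2 fold change in bifenthrin was 1.43 ± 0.35 (SE, edgeR adjusted p = 0.00129). FMg023501 ranged from 135 to 627 CPM in controls, from 292 to 1392 with bifenthrin and from 106 to 1126 with copper sulfate, with medians of 226, 712 and 438. For this model the lowest bifenthrin larva lay above the control median, and the log2 fold change came to 1.52 ± 0.33 (SE, edgeR adjusted p = 0.00042).

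FMg021987 had the highest log2 fold change of the 31 tested members, in both chemicals. It ranged from 11.8 to 77.0 CPM in controls with a median of 38.0, from 65.8 to 251 with bifenthrin, where the median was 156, and from 60.4 to 270 with copper sulfate, with a median of 125. Above the highest control lay 9 of 10 bifenthrin larvae and 10 of 11 copper sulfate larvae. The log2 fold change against controls was 1.94 ± 0.28 with bifenthrin (SE, edgeR adjusted p = 1.1e-06). With copper sulfate it was 1.60 ± 0.28 (SE, edgeR adjusted p = 0.00022). The 2 comparisons share the same controls. Set directly against each other, bifenthrin and copper sulfate larvae differed by a log2 fold change of 0.33 ± 0.27 (SE), which did not pass the test (edgeR adjusted p = 0.383). In lane 6 all 5 bifenthrin larvae lay above the highest copper sulfate larva, and in lane 7 0 of 5 did. Fitted within lanes, the values were 0.66 and 0.08 (edgeR adjusted p = 0.222 and 0.916).

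**Figure D1:**
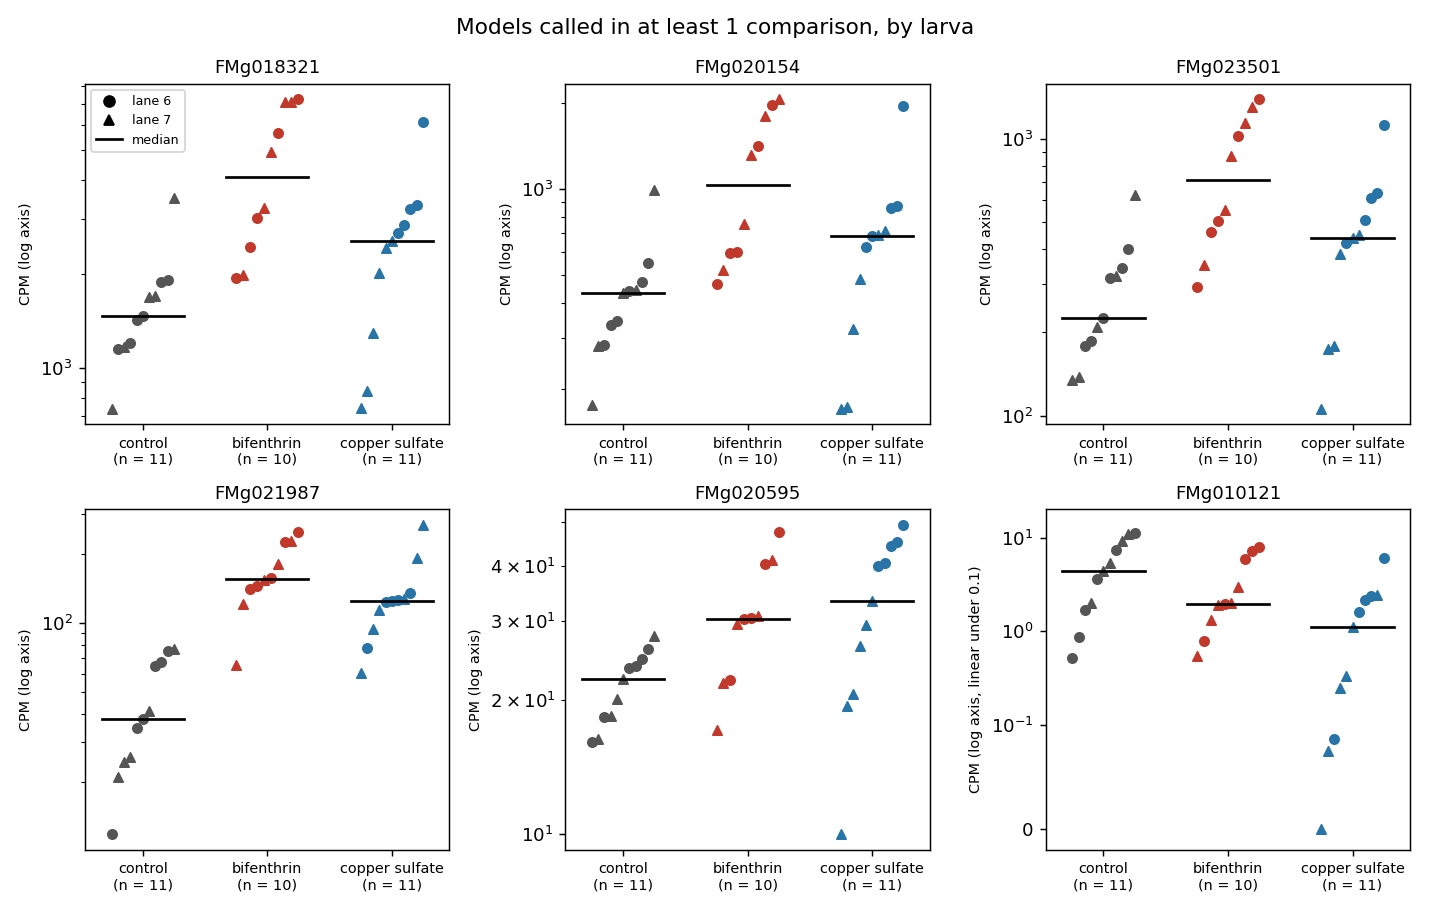
CPM of the 6 models called in at least 1 comparison (log axis; linear under 0.1 for FMg010121), by group, with 11 control, 10 bifenthrin and 11 copper sulfate larvae; each point is 1 larva, its shape gives the lane and the bar is the group median. For FMg021987, 9 of 10 bifenthrin and 10 of 11 copper sulfate larvae sit above the highest control at 77.0 CPM, while FMg018321 in copper sulfate larvae lies between 2702 and 6153 in lane 6 and between 742 and 2555 in lane 7.

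In copper sulfate larvae FMg021987 was the 1 RNase H model called. Of the 14 tested RNase H models 1 rose (FMg021987) and 0 fell by edgeR's adjusted p, where 5.58% of all tested models were called, 3.58% higher and 1.99% lower. At an unadjusted p under 0.05 the count was 3, and DESeq2 and limma-voom also called 1 higher and 0 lower. The 1 model is 7.14% of the tested class. The median log2 fold change of the class was 0.15, against -0.01 for all tested models, and lay between 0.07 and 0.32 under the other settings and without single larvae. FMg018321 differed by 0.63 ± 0.30 (SE, edgeR adjusted p = 0.250), FMg020154 by 0.63 ± 0.34 (SE, adjusted p = 0.326) and FMg023501 by 0.67 ± 0.32 (SE, adjusted p = 0.256), none of which passed the test.

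The copper sulfate values of these 3 models differed between sequencing lanes. In lane 6, FMg018321 ranged from 2702 to 6153 CPM in the 5 copper sulfate larvae and from 1145 to 1911 in the 6 controls, so that every copper sulfate larva lay above every control. In lane 7 the 6 copper sulfate larvae ranged from 742 to 2555 and the 5 controls from 740 to 3508, and the groups overlapped throughout. Fitted within lanes, the log2 fold change was 1.29 in lane 6 (edgeR adjusted p = 0.0349) and -0.10 in lane 7 (edgeR adjusted p = 0.988). In bifenthrin the same model gave 1.45 in lane 6 and 1.48 in lane 7 (edgeR adjusted p = 0.00175 and 0.0221). A lane-by-treatment interaction was called by edgeR for 0 of the 31 tested members and 0 of all tested models, with 5 members and 637 models at an unadjusted p under 0.05, and no other tool was run for it. The lanes also hold different larvae, so that lane and larva cannot be told apart.

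Between the 2 chemicals, 2 RNase H models were called higher with bifenthrin than with copper sulfate and 0 lower, where 14.9% of all tested models were called higher and 17.1% lower. The models were FMg018321, whose log2 fold change of 0.85 had an SE of 0.31 (edgeR adjusted p = 0.0312), and FMg023501, with 0.85 ± 0.33 (SE, edgeR adjusted p = 0.0489). FMg020154 gave 0.80 ± 0.35 and did not pass (SE, edgeR adjusted p = 0.0797). At an unadjusted p under 0.05 the count was 3, and DESeq2 called 1 higher. Within lane 6 alone FMg018321 differed by only 0.16 (edgeR adjusted p = 0.797), and within lane 7 by 1.58 (edgeR adjusted p = 0.0118). The call for FMg018321 was lost without any 1 of bifenthrin replicates 5, 7 and 11 or copper sulfate replicates 2, 5 and 11, with edgeR adjusted p of 0.0554 to 0.0738. The call for FMg023501 was lost in 18 of the 32 fits that left out 1 larva, with adjusted p of 0.0504 to 0.112. These were the fits without control replicate 3, 4, 7 or 8, without bifenthrin replicate 2, 4, 5, 7, 8 or 11, or without copper sulfate replicate 1, 2, 5, 6, 8, 11, 13 or 14. FMg020154 passed without control replicate 11, bifenthrin replicate 10 or copper sulfate replicate 7 (edgeR adjusted p = 0.0461, 0.0455 and 0.0128).

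**Figure D2:**
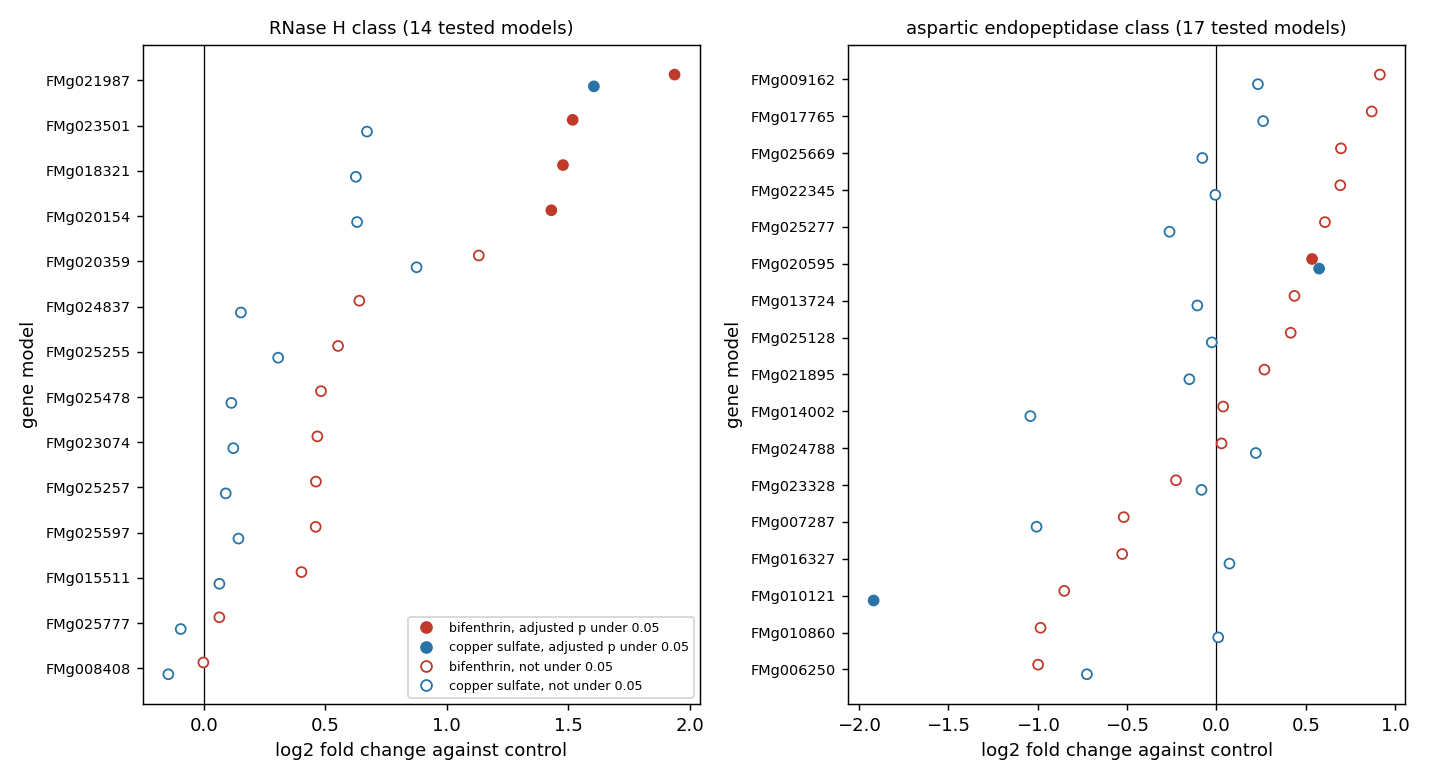
Log2 fold change against control of the 14 tested RNase H models and the 17 tested aspartic endopeptidase models, for bifenthrin (10 larvae) and copper sulfate (11 larvae) against 11 controls; filled points have an edgeR adjusted p under 0.05. The filled RNase H points lie between 1.43 and 1.94, while the aspartic points spread on both sides of 0.

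Most tested RNase H models fell into sets that varied together from larva to larva, some of them at near-constant ratios. As a measure of likeness, the SD over 32 larvae of the log2 ratio of 2 models was used, and a limit of 0.35 was chosen after the values were seen. Each set was built on the SD to its most abundant model alone. Under the limit, 10 of the 14 tested models formed 3 sets and 4 stood alone. The first set holds FMg018321, FMg020154 and FMg023501. FMg018321 itself varied 9.83-fold between the lowest and the highest larva, yet the ratio of FMg020154 to it stayed between 0.197 and 0.318, with an SD of 0.15. The median of that ratio was 0.257 in controls, 0.251 with bifenthrin and 0.254 with copper sulfate. FMg023501 held a ratio between 0.116 and 0.215, with an SD of 0.22 and group medians of 0.179, 0.176 and 0.183. These are 3 of the 4 models that rose in bifenthrin, and with such ratios their calls are not separate observations.

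The second set holds 5 models, FMg025478, FMg025257, FMg015511, FMg023074 and FMg024837. FMg025478 ranged from 59.6 to 545 CPM in controls (median 266), from 160 to 423 with bifenthrin (median 352) and from 69.2 to 382 with copper sulfate (median 264), and the groups overlapped throughout. The ratio of FMg015511 to it lay between 0.397 and 0.546 with an SD of 0.10, and that of FMg023074 between 0.178 and 0.251 with an SD of 0.12. FMg025257 and FMg024837 were looser, with SDs of 0.27 and 0.33. Their ratios to FMg025478 ran from 0.488 to 1.108 and from 0.0306 to 0.0874. Between these 2 models the SD was 0.44, and between FMg023074 and FMg024837 it was 0.357, both above the limit. No model of the second set was called: their log2 fold changes in bifenthrin lay between 0.40 and 0.64 (edgeR adjusted p = 0.0925 to 0.314) and in copper sulfate between 0.06 and 0.15 (edgeR adjusted p = 0.854 to 0.945).

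The third set is the pair FMg025597 and FMg025777, with an SD of 0.28. The ratio of FMg025777 to FMg025597 ran from 0.715 to 1.57. FMg025597 had group medians of 156, 193 and 223 CPM for the control, bifenthrin and copper sulfate groups, and FMg025777 had 171, 158 and 182. The log2 fold changes of the pair in bifenthrin were 0.46 ± 0.31 and 0.06 ± 0.31 (SE, edgeR adjusted p = 0.258 and 0.892). FMg021987, the model that rose in both chemicals, belonged to no set, and neither did FMg020359, FMg025255 and FMg008408. FMg025255 and FMg008408 averaged only 17.8 and 13.2 counts per larva. Counting noise adds to their SDs, so standing alone does not show that they vary apart from the sets. FMg018321 and FMg025478, the most abundant models of the first and second sets, had an SD of 0.89 between them. Their own log2 levels had SDs of 0.93 and 0.85. Unrelated levels would give a ratio SD above either, so these 2 models rose and fell together in part. How reads that match several models were counted is not given in the sources used here, so a fixed ratio between models that share sequence was not told apart from a fixed ratio between separate transcripts.

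**Figure D3:**
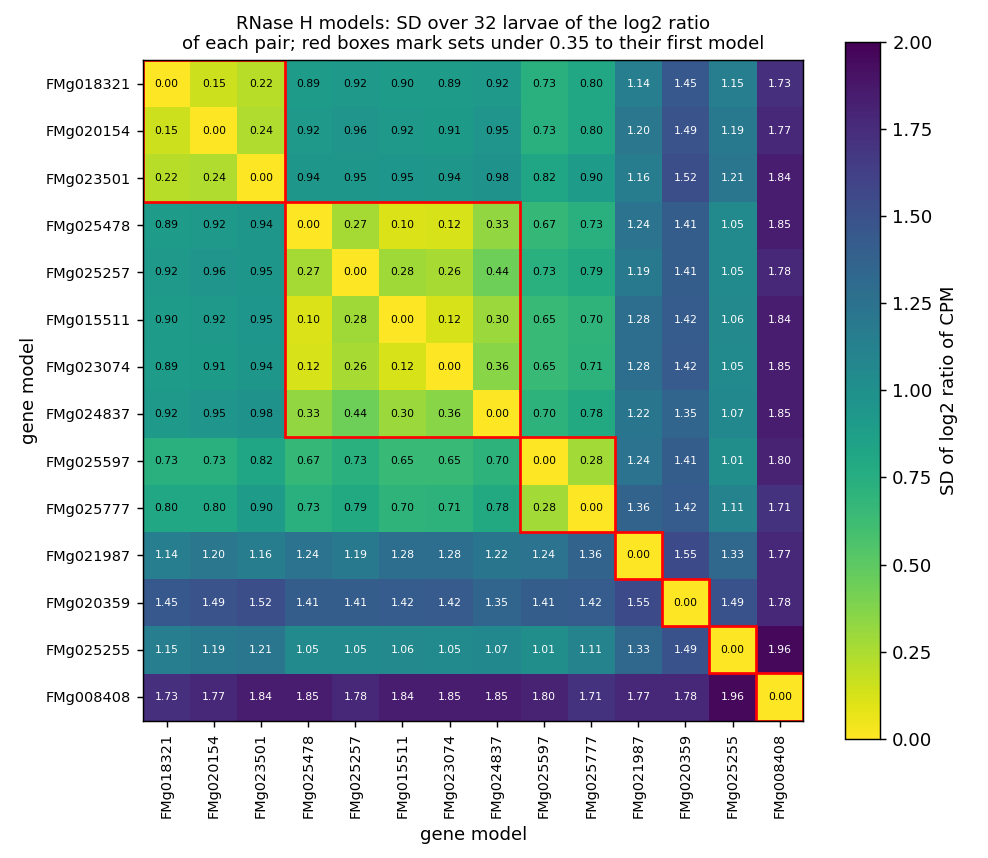
SD over 32 larvae of the log2 ratio of CPM for each pair of the 14 tested RNase H models; both axes list the models and darker cells are larger SDs. The outlined boxes are 3 sets of 3, 5 and 2 models, with SDs under 0.35 to the first model of each set, and 4 models on their own.

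**Figure D4:**
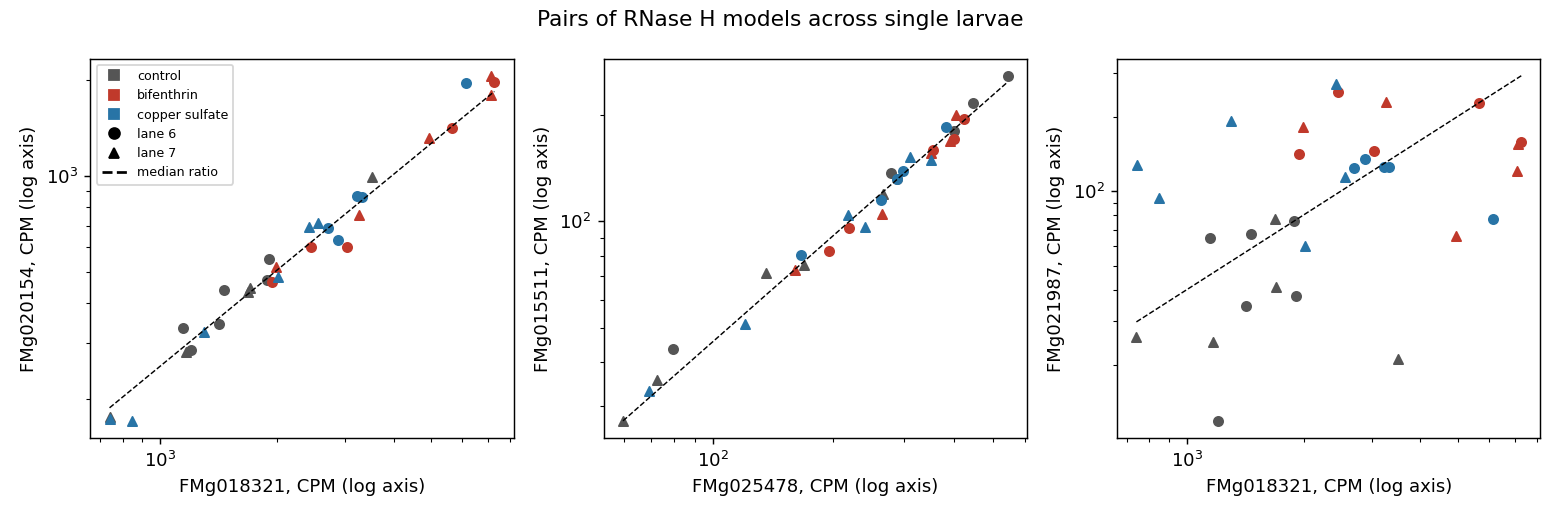
CPM of pairs of RNase H models in the 32 larvae on log axes; each point is 1 larva, coloured by group and shaped by lane, and the dashed line is the median ratio. FMg020154 keeps to a ratio of 0.197 to 0.318 of FMg018321 over a 9.83-fold range, in all 3 groups.

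Some models outside the RNase H class kept the same ratios. Of the other tested models, FMg023009 and FMg025702, both without annotation, followed FMg018321 with SDs of 0.27 and 0.32. Their log2 fold changes in bifenthrin were 1.20 and 1.37 (edgeR adjusted p = 0.00152 and 0.00326). FMg003442, also without annotation, followed FMg025478 with an SD of 0.18. For FMg021987 no model came under the limit, and the nearest was FMg000690, without annotation, at 0.47. FMg000690 rose in both chemicals, by log2 fold changes of 1.58 and 1.18 (edgeR adjusted p = 7.8e-07 and 0.00069).

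The 14 tested RNase H models differed more between control larvae than most models of like abundance. Over the 11 controls their coefficient of variation (CV) ranged from 44.4% to 99.7% with a median of 59.6%. Among models within 2-fold of the same mean count, 94.4% to 99.4% had a lower CV. Of the tested models FMg008408 and FMg025255 varied most, with control CVs of 99.7% and 99.0% at control medians of 0.487 and 0.626 CPM, and neither was called. The untested FMg020134 and FMg025532 had control CVs of 111% and 109.8%. FMg020359 was at 0.573 to 8.92 CPM in controls with a median of 2.71. Its bifenthrin larvae had a median of 6.40 and its copper sulfate larvae one of 3.72, and 1 larva in each of these groups reached 30.1 and 30.4 CPM. Those were bifenthrin replicate 13 and copper sulfate replicate 10, and all other larvae lay at or below 8.92. The log2 fold change of FMg020359 in bifenthrin was 1.13 ± 0.54 and did not pass (SE, edgeR adjusted p = 0.0993).

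The aspartic endopeptidase class was sparse and did not move in 1 direction. Of its 17 tested models, 1 rose and 0 fell in bifenthrin by edgeR's adjusted p, 5.88% of the tested class against 38.2% over all models. In copper sulfate 1 rose and 1 fell, 11.8% of the class against 5.58% over all models. Apart from FMg020595, the tested models averaged only 0.54 to 5.32 CPM. The share called among models of like counts was not measured. Between the chemicals 0 were called by edgeR, with 1 at an unadjusted p under 0.05, and DESeq2 and limma-voom also called 0. The median log2 fold change was 0.27 in bifenthrin and -0.08 in copper sulfate, against -0.01 over all models in each. The bifenthrin median was -0.34 within lane 7, and it was 0.11, 0.18 and 0.16 without control replicate 4, control replicate 10 and bifenthrin replicate 13. It was 0.44 and 0.43 without control replicate 11 and bifenthrin replicate 5. The copper sulfate median was 0.24 within lane 6 and -0.43 within lane 7, and lay between -0.18 and 0.01 without single larvae. For bifenthrin against copper sulfate the median was 0.49, with 11 values positive and 6 negative, against -0.02 over all models. Within lane 6 it was 0.01. At an unadjusted p under 0.05 the count was 3 for each chemical, and DESeq2 called 1 model lower in bifenthrin.

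FMg020595 was the most abundant aspartic endopeptidase model, with 40.2% of the counts of the class. It rose in both chemicals, though each call depended on the fit. It ranged from 16.1 to 27.8 CPM in controls with a median of 22.3, from 17.1 to 47.7 with bifenthrin, where the median was 30.4, and from 9.99 to 49.3 with copper sulfate, with a median of 33.3. Above the highest control lay 7 of 10 bifenthrin larvae and 7 of 11 copper sulfate larvae, while 1 copper sulfate larva lay below the lowest control. Its log2 fold change came to 0.54 ± 0.18 with bifenthrin (SE, edgeR adjusted p = 0.0154). With copper sulfate it came to 0.57 ± 0.17 (SE, edgeR adjusted p = 0.0425). Its copper sulfate larvae also split by lane, at 43.8 ± 3.88 CPM in lane 6 (SD, n = 5) and 23.19 ± 8.32 in lane 7 (SD, n = 6), where controls had means of 22.1 and 20.98. Within lane 7 the log2 fold change in copper sulfate was 0.13 (edgeR adjusted p = 0.973), against 1.00 within lane 6 (edgeR adjusted p = 0.00332). The copper sulfate call was lost in 16 of the 32 fits that left out 1 larva, with edgeR adjusted p of 0.0513 to 0.0828. Those fits left out control replicate 1, 2, 3, 4, 7, 10, 13 or 14 or copper sulfate replicate 1, 2, 4, 6, 7, 10, 13 or 14. It was also lost with limma-voom, with no lane term and with replicate number as a block (adjusted p = 0.0722, 0.0627 and 0.161). The bifenthrin call was lost within lane 7 and with that block (edgeR adjusted p = 0.293 and 0.0544).

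FMg020595 also had the lowest control CV of the tested members, 18.5%. It kept a log2 ratio with an SD under 0.35 to 7 models, 0 of them in its own class. Its own log2 level had an SD of only 0.54, against 0.93 for FMg018321 and 0.85 for FMg025478. The limit therefore asks less of models beside FMg020595, and the 7 SDs ran from 0.220 to 0.347. FMg024338, without annotation, was the closest at 0.22, and rose in bifenthrin and in copper sulfate by log2 fold changes of 0.61 and 0.54 (edgeR adjusted p = 0.00283 and 0.0363).

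Among the tested members, with all larvae and both terms in the fit, edgeR called only FMg010121 lower. The limma-voom test did not call it. In bifenthrin, DESeq2 and the edgeR fit of only the 2 groups each called 1 other aspartic model lower. FMg010121 ranged from 0.512 to 11.3 CPM in controls with a median of 4.36, from 0.541 to 7.98 with bifenthrin, where the median was 1.97, and from 0 to 6.06 with copper sulfate, with a median of 1.10. Among copper sulfate larvae 5 of 11 lay below the lowest control and 10 of 11 below the control median. With copper sulfate its log2 fold change came to -1.92 ± 0.57 (SE, edgeR adjusted p = 0.0417). With bifenthrin it came to -0.85 ± 0.56 and did not pass (SE, edgeR adjusted p = 0.245). Within lanes the copper sulfate value was -0.74 in lane 6 (edgeR adjusted p = 0.715) and -3.11 in lane 7 (edgeR adjusted p = 0.0473). The call was lost in 14 of the 32 fits that left out 1 larva, with edgeR adjusted p of 0.0504 to 0.0775. These were the fits without control replicate 2, 5, 7, 11 or 13 or without copper sulfate replicate 1, 2, 4, 6, 7, 8, 10, 11 or 14. It was also lost with no lane term, with only the 2 groups compared and with the replicate block (edgeR adjusted p = 0.0673, 0.0845 and 0.082), and with limma-voom (adjusted p = 0.160).

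FMg014002 was present at either a low or a high level in single larvae. In 25 larvae it lay between 0.285 and 2.11 CPM, and in the other 7 between 11.5 and 14.9, with no larva in the 5.44-fold gap between. The 7 larvae were 3 controls (replicates 5, 7 and 11), 3 bifenthrin larvae (replicates 1, 10 and 14) and 1 copper sulfate larva (replicate 13), so the high level occurred in every group. Of the 31 tested members, 1 had a gap of over 5-fold with at least 3 larvae on each side, and that was FMg014002. Its control CV of 129% was the highest of the tested members, and its log2 fold change was 0.04 in bifenthrin and -1.04 in copper sulfate (edgeR adjusted p = 0.973 and 0.474).

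The control CV of the 17 tested models ranged from 18.5% to 129% with a median of 67.8%, and for 12 of the 17 over 90% of models of like mean count had a lower CV. FMg009162 had a control CV of 120%, with medians of 0.170, 0.846 and 0.632 CPM for the control, bifenthrin and copper sulfate groups. All 10 bifenthrin larvae lay above its control median, but its log2 fold change of 0.91 ± 0.59 did not pass (SE, edgeR adjusted p = 0.232). FMg017765, with a control CV of 118%, ranged from 0 to 3.99 CPM in controls, from 0 to 9.20 with bifenthrin and from 0 to 7.80 with copper sulfate. FMg025128 and FMg021895, the most abundant after FMg020595, had control medians of 3.50 and 4.31 CPM and were not called in any comparison (edgeR adjusted p between 0.393 and 0.983). For FMg021895 all 5 bifenthrin larvae of lane 6 lay above the highest control of that lane, with group means there of 7.09 and 2.78 CPM. Over both lanes, 1 of 10 bifenthrin larvae lay above the highest control. In lane 7 the bifenthrin mean was 4.02 and the control mean 7.23. Its lane-by-treatment interaction was not called (edgeR adjusted p = 0.9996).

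Most aspartic endopeptidase models were near the limit of detection. Of the 52 models, 9 had a count in all 32 larvae, 20 in 24 or more but not all, 13 in 9 to 23 and 10 in 8 or fewer. A single larva held a count for 27 to 42 of the 52. Over all larvae 4 models had under 10 counts in total and another 20 had at least 10 but under 100. The 35 models that were not tested had 5 to 283 counts each. In a fit with no filter 3 of these untested models were called. FMg013408 was lower in bifenthrin and in copper sulfate, by log2 fold changes of -4.08 and -4.32 (edgeR adjusted p = 0.00092 and 0.00332). FMg022202 was lower in bifenthrin, at -3.22 (edgeR adjusted p = 0.0181), and FMg025209 was higher in bifenthrin than in copper sulfate, at 2.41 (edgeR adjusted p = 0.0453).

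Among these sparse models, those 3 included, counts were in places concentrated in 1 larva or a few. FMg016701 had 31 counts, of which 30 came from control replicate 4. The same larva held 25 of the 31 counts of FMg022202. FMg025209 had 38 counts in 11 larvae, 57.9% of them from 3 larvae. FMg013408 had 283 counts, 85.2% of them from control replicates 11, 7 and 5, with 109, 85 and 47 counts, while the other 29 larvae held at most 6 each. Those 3 controls are also the 3 with the high level of FMg014002, whereas the 3 bifenthrin larvae and the copper sulfate larva with that level had 0 to 5 counts of FMg013408. The sparse models named here were chosen after their values were seen.

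**Figure D5:**
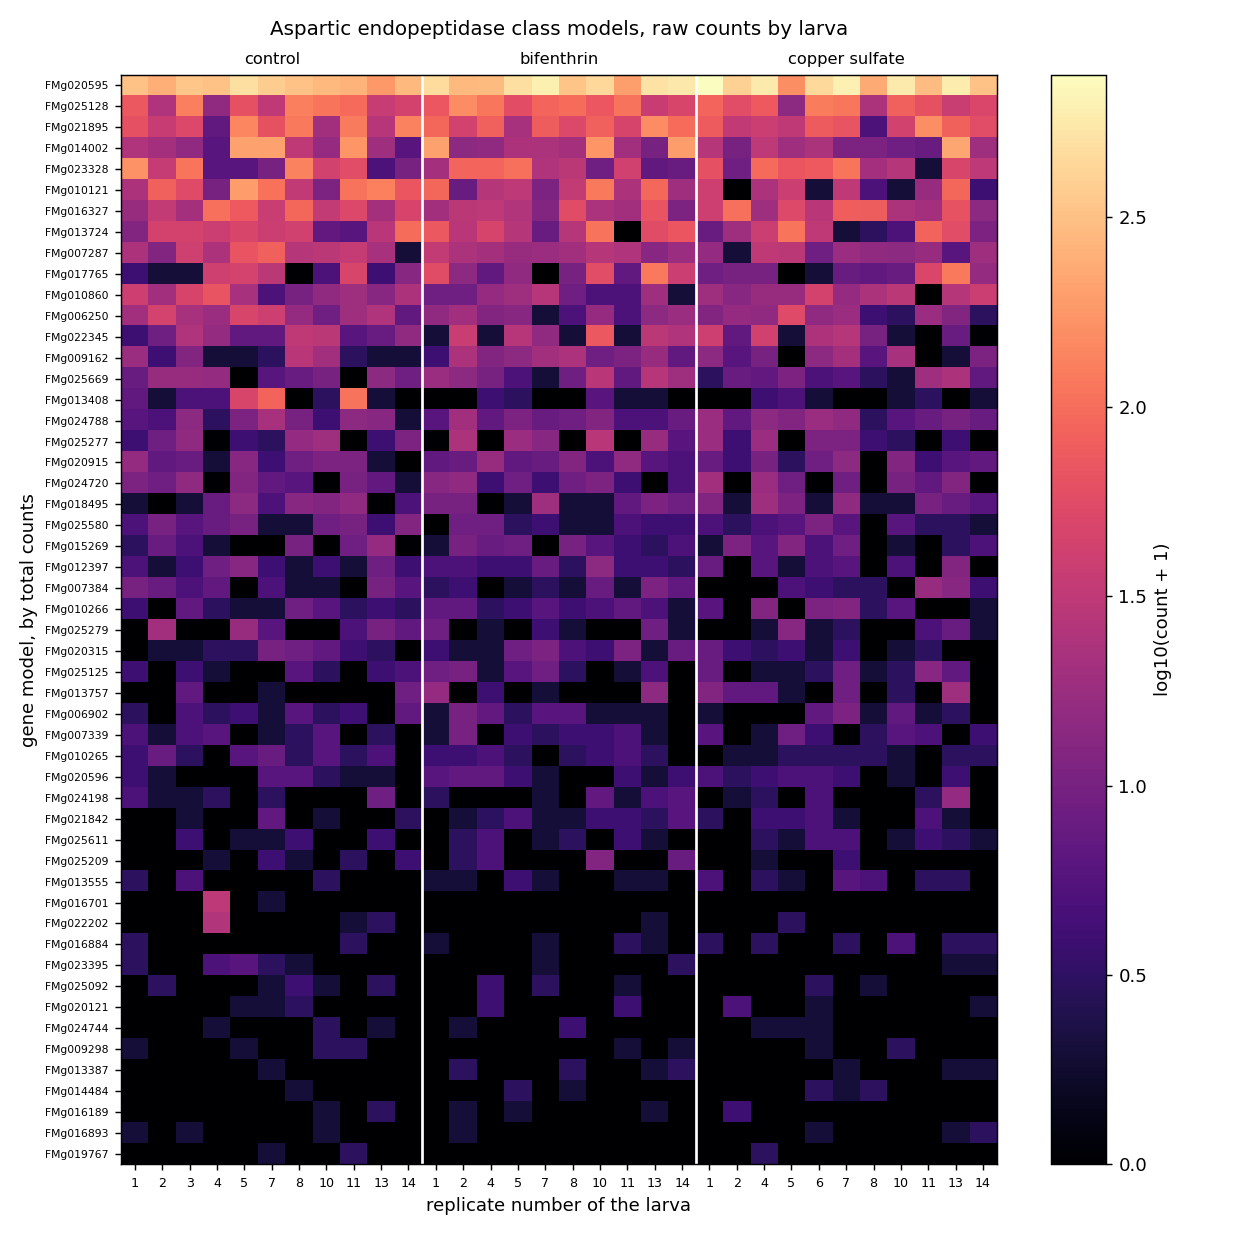
Raw counts of the 52 aspartic endopeptidase models (rows, ordered by total counts) in 32 larvae (columns, by group and replicate number), coloured by log10(count + 1). The bright row at the top is FMg020595, and single bright cells lower down include FMg013408 in control replicates 5, 7 and 11.

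Neighbouring enzyme classes gave no wider group to set beside the members. No other model was annotated to EC:3.1.26, and serine, cysteine and metallo-endopeptidases (EC:3.4.21, EC:3.4.22 and EC:3.4.24) were listed for 0 models. The 17 models that list the protein entry A5PF24, of which 15 were tested, had 4 calls in bifenthrin, all higher. Over all tested models 38.2% were called in either direction and 3820 of 21174 were called higher. The median log2 fold change of the 15 was 0.58. In copper sulfate 0 were called by edgeR, with 1 at an unadjusted p under 0.05 and a median of 0.02. Between the chemicals 4 were higher in bifenthrin, with a median of 0.49, where 14.9% of all tested models were called higher.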

How the data were processed

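The authors deposited 1 table of raw counts, whole numbers per gene model and larva with no normalization, for 32 whole larvae in 3 groups. Per the submitters' processing notes, the tools were bcl2fastq 2.19.1, STAR and limma. The sources used here give no build, annotation or counting rule. Each library took 250 ng of total RNA, per the labels' protocols. All columns were assigned by their labels. Models were filtered with filterByExpr (21174 kept, with 99.9% of counts), scaled by TMM and tested with the quasi-likelihood F test of edgeR 4.0.16 in R 4.3.3, with group and lane as terms, all larvae together and Benjamini-Hochberg adjustment over all tested models. SE is the absolute log2 fold change divided by the square root of F. Log2 ratios used log2 CPM with a prior count of 2.

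Members and lists were chosen with earlier results of these data known. In each class, models named were those called, the 3 highest by mean CPM and the 3 with the highest control CV; the models in ratio sets were added after their values were seen.

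On simulated counts for 21174 models with 200 changed, bifenthrin against control recovered 70.1%, 86.6% and 98.5% of 1.5-fold, 2-fold and 4-fold changes, with 3.95% false calls. Copper sulfate against control recovered 56.7%, 83.6% and 97.0%, with 4.82% false calls. The changed models were drawn at random from all tested models. In the data far more than 200 models were called, 8096 in bifenthrin and 1181 in copper sulfate. The adjusted p depends on that share, and recovery at such shares was not measured. Most tested members varied more between larvae than such models, and recovery among members was not measured. In all 496 pairs of larvae the chi-square of the counts was at least 9.85 per degree of freedom, so none looked like 1 library sequenced again. Whether 2 libraries came from the same larva was not tested. Alternatives were the DESeq2 1.42.0 test, its size factors in edgeR, limma-voom (3.58.1), other filters, lane choices, fits of 2 groups, a replicate block and leaving out each larva.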

Additional observations from a re-analysis of the deposited data

Results flagged for a closer look

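In 3 of the 14 named models, a bifenthrin larva lay farther from the nearest other larva than Dixon's criterion allows for a group of 10. For FMg020359, bifenthrin replicate 13 was at 30.1 CPM and the next highest at 8.66. The same larva was highest for FMg017765, at 9.20 CPM against 3.85 for the next. For FMg008408, bifenthrin replicate 10 was at 3.37 CPM and the next at 1.79. For normally distributed values chance flags about 1 in 20 groups. The criterion was applied to CPM without a log transform, and the chance rate for such values was not measured. Control and copper sulfate groups of 11 larvae are too large for this criterion and were not examined. None of the 3 models was called in the edgeR test.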

How the results depend on the processing

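Under 10 other settings the RNase H class had 4 to 6 models higher in bifenthrin, the 4 named ones always among them, and 1 in copper sulfate (in lane 6 FMg018321 in place of FMg021987), with 0 lower; without single larvae it had 4 to 5 and 1. Against copper sulfate, 2 RNase H models were higher in bifenthrin, but 1 with DESeq2, no filter or no lane term, 0 in lane 6 or with the replicate block, and 0 to 3 without single larvae. For aspartic models in bifenthrin, the 1 higher became 2 in lane 6 and 0 in lane 7 or with the block; the 0 lower became 1 with DESeq2 or with only the 2 groups compared, 2 with no filter and 0 to 1 without single larvae; and the median of 0.27 became -0.34 in lane 7. In copper sulfate, the 1 aspartic model higher became 0 with limma-voom, no lane term, lane 7 or the block, and 0 to 1 without single larvae. The 1 lower became 0 with limma-voom, no lane term, lane 6, only 2 groups or the block, 2 with no filter and 0 to 2 without single larvae. It was also 0 at a mean count of at least 50, where FMg010121, with a mean count of 46.9, was not tested. Between the chemicals, aspartic models higher became 1 with no filter, and higher or lower 0 to 1 without single larvae. Calls over all models fell from 8096 to 5278 and 4055 in lanes 6 and 7 for bifenthrin, from 1181 to 382, 87 and 725 (lane 6, lane 7, block) for copper sulfate, and from 6768 to 2630 and 3783 (lanes 6 and 7) between the chemicals; single lanes hold fewer larvae, and the other causes were not tested.

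Signs turned for FMg010121 in bifenthrin (0.20 in lane 6), for FMg018321 and FMg020154 in copper sulfate (-0.10 and -0.13 in lane 7) and for FMg020595 between the chemicals (0.29 in lane 7, and -0.13 to 0.025 without single larvae, turning without bifenthrin replicates 4 and 11 and copper sulfate replicates 1 and 10), none of them called. FMg021987 in copper sulfate missed the threshold in lane 6 alone (edgeR adjusted p = 0.0513), and FMg020595 in bifenthrin missed it in lane 7 and with the block. The replicate block used 30 larvae with 10 shared numbers. Deviations of same-numbered larvae from their group means had r from -0.197 to 0.214 over 30 pairs, 8 above 0.1. Larvae with different numbers were not compared, so whether the numbers pair larvae was not settled. Each shared number lay in the same lane in every group. Scaling by DESeq2 size factors moved the median log2 fold change of all models from -0.01 to 0.00 in bifenthrin. The 37 untested members had low counts, and 3 of them were called with no filter. Beaker, read sharing between copies and the source of lane differences were not tested.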
